A study of Mus musculus with 6 samples.

Results

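Transcripts of the nuclear pore and of nuclear transport were examined in mouse embryonic fibroblasts with and without Zmpste24, the zinc metalloprotease that trims prelamin A into mature lamin A of the nuclear lamina. The set consists of 37 named genes of the nucleoporins, the importins, the exportin Xpo1 and the Ran cycle, and each gene was read by the brightest probe set that carries its symbol alone. Of the 37 genes, 35 had such a probe set, among 18193 genes on the array that did. Nup35 and Tpr had none and were not analysed here. Of the 35 with one, 34 passed the filter on dim probe sets, among 13038 genes tested, and Nup210 did not. The 3 Zmpste24-/- and 3 wild-type (WT, Zmpste24+/+) cultures were of C57BL/6 strain, were derived from E13.5 embryos and were grown to passage 3. They differ by the Zmpste24 genotype in the labels, and each genotype has cultures numbered 1, 2 and 3. One Affymetrix 430 2.0 array was made from each of these 6 cultures.

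The nuclear pore is a ring of nucleoporins set in the nuclear envelope. A scaffold of Y complexes and an inner ring is anchored by membrane proteins, lines a central channel with FG-repeat proteins, and carries filaments on the cytoplasmic side and a basket on the nuclear side. Importins bind cargo in the cytoplasm and release it when they meet Ran bound to GTP in the nucleus, whereas exportins such as Xpo1 bind cargo together with Ran-GTP. The basket and some pore proteins lie next to the lamina, which lamins A and B1 help to build.

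Zmpste24 itself checked the labels. Its signal was 365, 182 and 226 in Zmpste24-/- cultures 1, 2 and 3, against 3850, 2249 and 2043 in WT cultures 1, 2 and 3, with no overlap (log2 difference -3.31, limma adjusted p 4.0e-05 with the replicate block and 0.987 without it). Whether its probe set lies inside the deleted part is not given in the labels. Both arrays numbered 1 stood apart, with a correlation of 0.985 between them and of 0.927 to 0.934 with the other 4 arrays, which correlated among themselves at 0.98 to 0.987. Xist was 6669, 4766 and 6660 in Zmpste24-/- cultures and 5324, 69.3 and 43.7 in WT cultures, so the sex marker differed between genotypes in numbers 2 and 3. All 14 fibroblast markers passed the filter, and their summed signal was 134440 to 155920 in Zmpste24-/- and 139150 to 157100 in WT cultures. Single markers differed by number within that sum. Against the mean of numbers 2 and 3, 5 of 14 were lower in number 1, beside 46.8% of all genes, and 9 were higher. Col5a1 was lower, at log2 differences of -0.38 from number 2 and -0.36 from number 3 (limma adjusted p 0.00683 and 0.00883). Lum and Dcn had the largest differences, and both were higher. Lum had 7892 and 6548 in Zmpste24-/- and WT cultures 1, against 292 and 483 in Zmpste24-/- and 681 and 577 in WT cultures 2 and 3. Dcn had 6233 and 4457 in Zmpste24-/- and WT cultures 1, against 477 and 826 in Zmpste24-/- and 660 and 862 in WT cultures 2 and 3.

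Between the genotypes the transport genes differed little. Of the 34 tested members, 20 were higher and 14 lower in Zmpste24-/- cultures, with a median log2 difference of 0.03, beside -0.0036 over all 13038 tested genes. The differences ranged from a low of -0.15 to a high of 0.29, and 32 of 34 were under 0.2 in size. No member passed an adjusted p of 0.05 in limma without a block (0 of 34, beside 0% of all genes), or with the replicate block (0 of 34, beside 0.0230%). At an unadjusted p under 0.05 the fit without a block had 0 of 34 members, beside 1.04% of all genes. The replicate block, which compares cultures of the same number, had 4 of 34 members at an unadjusted p under 0.05, beside 9.30% of all genes: Seh1l, Ranbp2, Kpna4 and Xpo1. In that fit the 95% intervals of the 34 differences lay between -0.35 and 0.55. In bulk RNA, fewer cells of a type and less RNA per cell cannot be told apart.

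Ranbp2, the large cytoplasmic filament protein that is also a SUMO ligase, had the largest of these differences. Its signal was 2688, 2904 and 2942 in Zmpste24-/- cultures 1, 2 and 3, against 2428, 2198 and 2368 in WT cultures 1, 2 and 3. All Zmpste24-/- arrays lay above all WT arrays, and the log2 difference was 0.29 (SE 0.12, limma adjusted p 0.9999; unadjusted p 0.00489 and adjusted p 0.391 with the replicate block). A second tested probe set of Ranbp2 gave 1459, 1647 and 1200 in Zmpste24-/- and 1151, 1608 and 1577 in WT cultures, with overlap and a log2 difference of -0.0058, so the probe sets of this gene disagree. Seh1l, a small subunit of the Y complex that is shared with a nutrient-sensing complex, had 1713, 1745 and 1772 in Zmpste24-/- cultures, against 1534, 1377 and 1672 in WT cultures. These also did not overlap (log2 difference 0.19, with SE 0.082 and limma adjusted p 0.554 in the fit with the block). Of the 5 other tested probe sets of Seh1l, 3 had the opposite sign for the genotype. Over all 6 the log2 differences ran from -0.186 to 0.193, so the probe sets of Seh1l disagree too. Ranbp2 and Seh1l were 2 of 34 members whose Zmpste24-/- arrays all lay above WT, beside 2.10% of all genes, and 0 of 34 members lay wholly below, beside 2.65%.

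Within same-numbered pairs, 9 of 34 members were higher in Zmpste24-/- in every pair, beside 15.8% of all genes: Nup107, Nup160, Seh1l, Ndc1, Ranbp2, Nup153, Kpna2, Kpna4 and Xpo1. Another 6 of 34 were lower in every pair, beside 16.2%: Nup37, Sec13, Nup93, Rae1, Ran and Rangap1. The median difference over members was 0.01, 0.06 and 0.02 in pairs 1, 2 and 3. Kpna4, an importin alpha adaptor, had a log2 difference of 0.17 and Xpo1 also of 0.17. Their adjusted p was 0.527 and 0.537 in limma with the replicate block, so neither passed. The other tested probe set of Kpna4 had the opposite sign, at -0.095, whereas that of Xpo1 was at 0.20.

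By role, the genotype differences were small in every group. The 8 Y complex genes had 4 higher and 4 lower in Zmpste24-/- cultures, between -0.08 for Sec13 and 0.19 for Seh1l. The inner ring ranged over -0.10 for Nup93 to 0.17 for Nup188, and Ndc1 was at 0.21 and Pom121 at -0.01. Nup54 and Nup62 of the channel were at 0.01 and -0.02. On the cytoplasmic face Aaas was at -0.15, and in the basket Nup50 was at 0.17 and Nup153 at 0.09. Of the importins 4 of 5 were higher in Zmpste24-/- cultures, with Kpnb1 at -0.03 the exception. In the Ran cycle Rcc1 was at 0.18, with 0.66, -0.20 and 0.09 in pairs 1, 2 and 3, so its pairs differed in sign. Rangap1 was at -0.15, Ran at -0.07 and Ranbp1 at 0.01. The limma adjusted p without a block was 0.9999 for each of the 34 members.

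**Figure D1:**
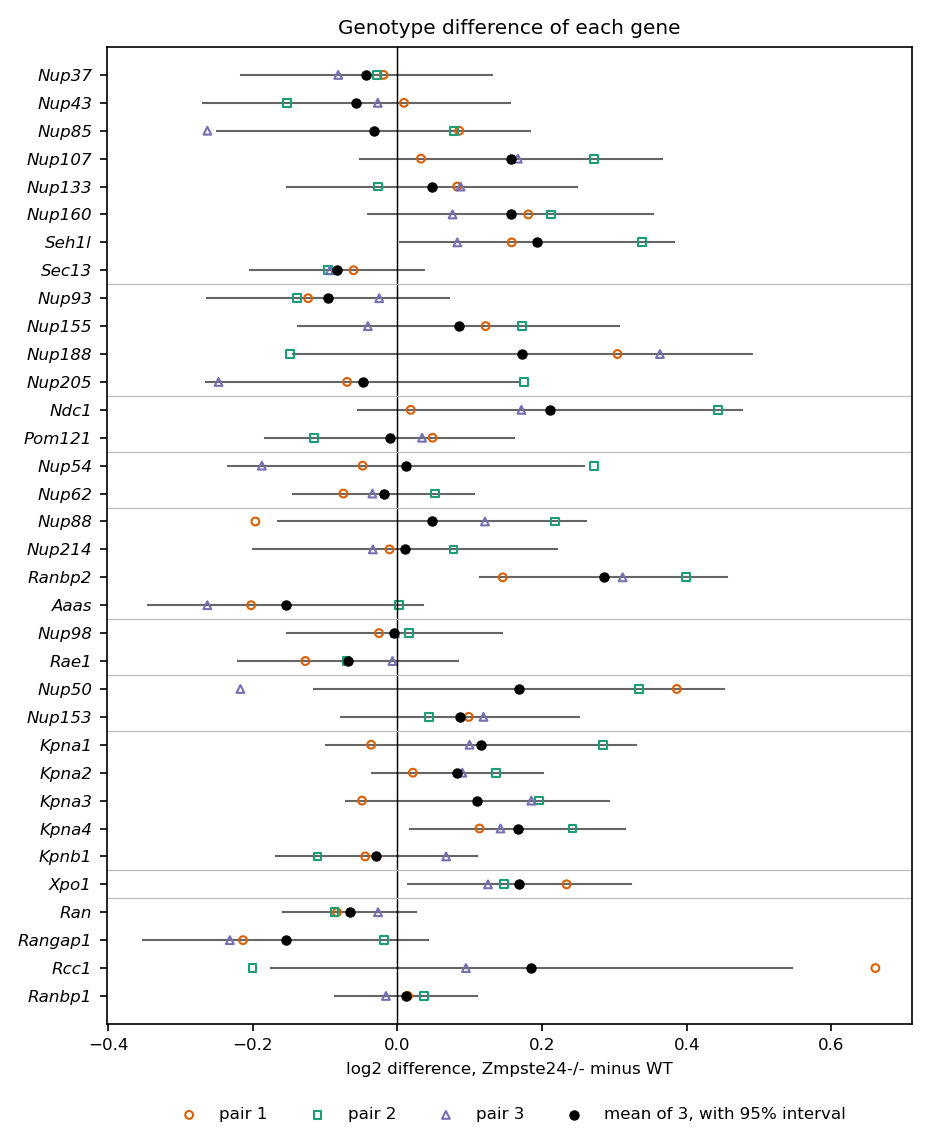
Log2 difference between Zmpste24-/- and WT for each of 34 genes: open symbols are the 3 same-numbered pairs, filled circles their mean, and lines the 95% interval of the fit with the replicate block. Most intervals cross 0, and those of Ranbp2, Seh1l, Kpna4 and Xpo1 do not.

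Differences by culture number were wider than those by genotype. Cultures numbered 1 had the lower signal in 31 of 34 members when set against the mean of numbers 2 and 3, beside 46.8% of all genes, and the median ratio of the other cultures to number 1 was 1.63, beside 0.968 over all genes. Against number 2, 26 of 34 members were lower in number 1 (limma, genotype and number in the fit, adjusted p under 0.05), beside 22.3% of all genes, and 1 of 34, Aaas, was higher, beside 26.7%. Against number 3, 25 of 34 were lower, beside 21.6%, and 1 of 34, again Aaas, was higher, beside 25.4%. The same 25 members were lower than both, beside 19.5% of all genes. In 29 of 34 members both number 1 arrays lay below all other 4 arrays, beside 29.0%. Numbers 2 and 3 differed in 0 of 34 members, beside 0.0153%. The median log2 difference of members was -0.64 for number 1 minus 2 and -0.71 for number 1 minus 3, beside 0.06 and 0.03 over all genes.

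Some other lists moved with number 1. Proliferation markers were lower in number 1 in 25 of 25 measured genes of 26 listed, and their summed signal was 23437 and 23741 in Zmpste24-/- and WT cultures 1, against 82132 to 91559 in Zmpste24-/- and 80547 to 83938 in WT cultures 2 and 3. Macrophage markers were higher in number 1 in 13 of 13 tested genes of 14 listed, with sums of 16407 and 9088 in Zmpste24-/- and WT cultures 1, against 1876 to 1971 and 2244 to 2993 in the others. Epithelial markers had sums of 732 and 635 in Zmpste24-/- and WT cultures 1, against 3056 to 3529 in Zmpste24-/- and 3216 to 3407 in WT cultures 2 and 3, and 4 of 5 tested genes of 8 listed were lower in number 1. The keratin gene Krt19 had 49.7 and 83.8 in Zmpste24-/- and WT cultures 1, against 2514 and 2038 in Zmpste24-/- and 2026 and 1724 in WT cultures 2 and 3, whereas Epcam was higher in number 1 and Cdh1 was under the filter. Skeletal muscle markers had sums of 730 and 1150 in Zmpste24-/- and WT cultures 1, against 2678 to 3628 in Zmpste24-/- and 4011 to 4802 in WT cultures 2 and 3. Of these sums, the actin gene Acta1 alone gave 314 and 605 in Zmpste24-/- and WT cultures 1. In cultures 2 and 3 Acta1 gave 2479 and 1691 in Zmpste24-/- and 3871 and 2903 in WT, most of each sum. All 5 tested muscle genes of 8 listed were lower in number 1, and Myod1, Myog and Myf5, which define that lineage, were under the filter. Neural markers had sums of 2834 and 1234 in Zmpste24-/- and WT cultures 1, against 2726 to 3244 and 2800 to 3238 in the others. Their ratio of number 1 to the rest, 0.677, thus rests on the WT array. In number 1, 3 of 7 tested neural genes were lower, beside 46.8% of all genes. For endothelial markers the ratio was 1.05. C1qa, a macrophage complement gene, was at 1008 and 380 in the cultures numbered 1 and between 3.18 and 9.02 elsewhere. Lmnb1, which encodes lamin B1, was 385 and 416 in Zmpste24-/- and WT cultures 1, against 2439 and 2460 in Zmpste24-/- and 2307 and 2491 in WT cultures 2 and 3. The part that these markers have in the transport gene difference was not tested, and the labels do not say what a number marks.

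**Figure D2:**
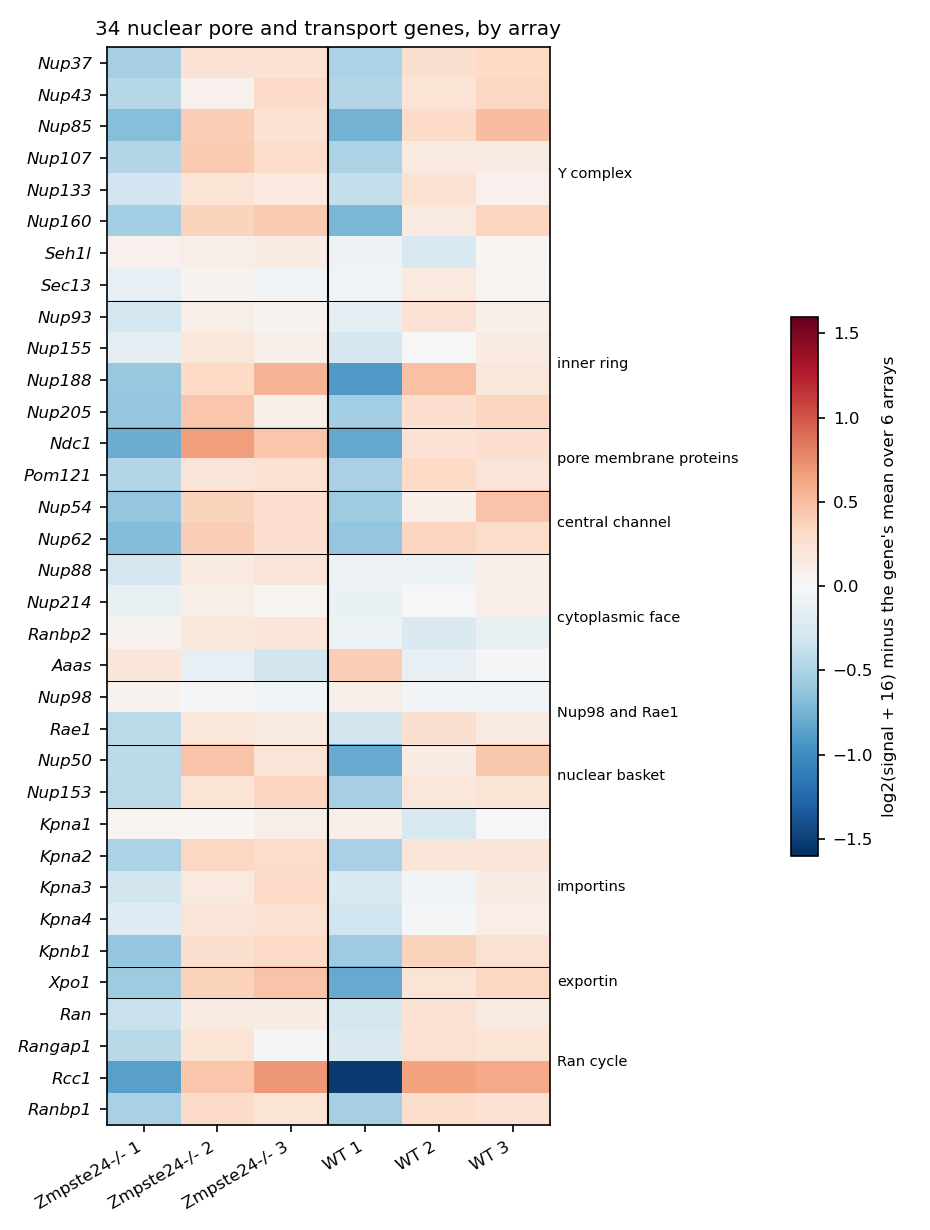
Log2(signal + 16) of 34 genes minus each gene's mean over 6 arrays, with Zmpste24-/- arrays left of WT arrays and genes grouped by role. The columns numbered 1 are blue in most rows in both genotypes, and the rows of Aaas, Nup98, Kpna1, Seh1l and Ranbp2 are not.

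Of the 8 tested Y complex genes, which build the outer scaffold, 6 were lower in number 1 than in both other numbers, beside 19.5% of all genes. These were Nup37, Nup43, Nup85, Nup107, Nup133 and Nup160. Nup85 had 972 and 915 in Zmpste24-/- and WT cultures 1, against 2049 and 1842 in Zmpste24-/- and 1940 and 2214 in WT cultures 2 and 3. Both number 1 arrays were well under the rest (log2 difference -1.07, SE 0.11, number 1 minus 2, and -1.09, number 1 minus 3; limma adjusted p 0.000202 and 0.000207). The ratios of the other cultures to number 1 were 1.43 for Nup133 and 1.94 for Nup160. Sec13, which also coats vesicles that leave the endoplasmic reticulum, was lower than number 2 alone (log2 difference -0.20, limma adjusted p 0.0345), a call lost without any 1 of the 6 arrays (adjusted p 0.0592 to 0.182) and under quantile normalization (log2 difference -0.08, adjusted p 0.344). Nup133 lost its call against number 3 without Zmpste24-/- culture 3 or WT culture 1 or 3 (adjusted p 0.0528 to 0.0874). Seh1l by its brightest probe set was at 0.06 and -0.09 and passed in neither contrast.

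In the inner ring, the scaffold around the channel, 3 of 4 genes were lower in number 1 than in both, beside 19.5% of all genes. Nup188 had 221 and 176 in Zmpste24-/- and WT cultures 1, against 435 and 512 in Zmpste24-/- and 484 and 394 in WT cultures 2 and 3. That is a log2 difference of -1.15 from number 2 and of -1.13 from number 3 (limma adjusted p 0.000919 and 0.00113), with no overlap. Nup205, its paralogue in the ring, was at -0.95 and -0.81. Nup93, which anchors the ring, had 1525 and 1663 in Zmpste24-/- and WT cultures 1, against 1980 and 1930 in Zmpste24-/- and 2182 and 1964 in WT cultures 2 and 3. Its smaller differences were -0.38 and -0.29 (limma adjusted p 0.00919 and 0.0323). The first lost its call without WT culture 2 or Zmpste24-/- culture 1 (adjusted p 0.0594 and 0.0529), and the second without Zmpste24-/- culture 1 or 3 or WT culture 1 or 3 (0.0998 to 0.227). Nup155 was at -0.31 and -0.32 and did not pass (limma adjusted p 0.0663 and 0.0582).

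Both tested membrane anchors and both channel proteins were lower in number 1 than in both other numbers, beside 19.5% of all genes. Ndc1, a transmembrane protein of the pore, had 322 and 317 in Zmpste24-/- and WT cultures 1, against 917 and 784 in Zmpste24-/- and 670 and 694 in WT cultures 2 and 3. The log2 differences were -1.25 (SE 0.14) and -1.17, with limma adjusted p of 0.000257 and 0.000392. Pom121 was at -0.75 and -0.71. Nup210, also a membrane protein, was dim everywhere, at 9.97 to 23.7 in Zmpste24-/- and 8.58 to 41.1 in WT cultures, and has no test. In the channel, Nup62 had 3465 and 3650 in Zmpste24-/- and WT cultures 1, against 7401 and 6727 in Zmpste24-/- and 7140 and 6891 in WT cultures 2 and 3. It was at -1.03 and -0.93 (limma adjusted p 2.17e-05 and 3.6e-05), and its partner Nup54 at -0.81 and -0.96.

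On the cytoplasmic face, 0 of 4 tested genes passed the test for lower signal in number 1 than in both other numbers, beside 19.5% of all genes. Against the mean of numbers 2 and 3, 3 of 4 were lower in number 1, beside 46.8%. For Nup88 and Nup214 both number 1 arrays lay below all others. Nup88 was at -0.21 and -0.33 (limma adjusted p 0.171 and 0.0501), Nup214 at -0.17 and -0.18 and Ranbp2 at 0.02 and -0.05, none of which passed. Nup88 passed against number 3 without WT culture 1 or 2 or Zmpste24-/- culture 2 (adjusted p 0.00951 to 0.0438), and against number 2 without WT culture 1 (0.032). Whether these 4 genes differ from the other role groups was not tested. Aaas, which encodes aladin and is mutated in triple A syndrome in humans, ran the other way. It had 1936 and 2230 in Zmpste24-/- and WT cultures 1, against 1552 and 1379 in Zmpste24-/- and 1550 and 1658 in WT cultures 2 and 3. Both number 1 arrays lay above the rest, by 0.42 and 0.45 on the log2 scale (limma adjusted p 0.0109 and 0.00793). The first of these did not pass when arrays were centred on their medians (log2 difference 0.26, adjusted p 0.174), and neither passed without the intensity trend (adjusted p 0.0652 and 0.0567). Leaving out WT culture 1 or WT culture 2 also ended that call, at adjusted p 0.0626 and 0.0911, and leaving out Zmpste24-/- culture 3 ended the call against number 3, at 0.091.

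Nup98 and Rae1 act together in mRNA export. Rae1 had 1946 and 2127 in Zmpste24-/- and WT cultures 1, against 2978 and 2889 in Zmpste24-/- and 3128 and 2903 in WT cultures 2 and 3, and was lower in number 1 (-0.58 and -0.51, limma adjusted p 0.000729 and 0.00159). Nup98 was at 0.11 in both contrasts and did not pass. In the nuclear basket, Nup50 had 1076 and 820 in Zmpste24-/- and WT cultures 1, against 1980 and 1669 in Zmpste24-/- and 1567 and 1943 in WT cultures 2 and 3. Nup50 was at -0.90 and -0.93 (limma adjusted p 0.00187 and 0.00171), and Nup153, which binds the lamina, was at -0.68 and -0.76, so both passed.

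Of the 5 importins, 4 were lower in number 1 than in both other numbers, beside 19.5% of all genes. Kpnb1, importin beta, which carries cargo through the channel, had 2939 and 3032 in Zmpste24-/- and WT cultures 1, against 5382 and 5594 in Zmpste24-/- and 5812 and 5338 in WT cultures 2 and 3. It was at -0.90 and -0.87 (limma adjusted p 5.88e-05 and 7.62e-05). Among the importin alpha adaptors, Kpna2 was at -0.78 and -0.76, Kpna3 at -0.33 and -0.49, and Kpna1 at 0.17 and 0.02, which did not pass. Kpna3 lost its call against number 2 without Zmpste24-/- culture 1 or 2 (adjusted p 0.229 and 0.158), and against number 3 without Zmpste24-/- culture 3 (0.0577). Kpna4 had 2614 and 2416 in Zmpste24-/- and WT cultures 1, against 3498 and 3580 in Zmpste24-/- and 2955 and 3242 in WT cultures 2 and 3, or -0.35 and -0.44 (limma adjusted p 0.00734 and 0.00286). The first lost its call without Zmpste24-/- culture 1 or 2 (adjusted p 0.0553 and 0.0628). Xpo1, which exports proteins with a leucine-rich signal, had 1659 and 1409 in Zmpste24-/- and WT cultures 1, against 3185 and 3389 in Zmpste24-/- and 2875 and 3106 in WT cultures 2 and 3. It was at -0.98 and -1.08 (limma adjusted p 6.46e-05 and 4.73e-05), and within each number its Zmpste24-/- value was above its WT value.

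All 4 genes of the Ran cycle were lower in number 1 than in both other numbers, beside 19.5% of all genes. Rcc1, the chromatin-bound exchange factor that loads Ran with GTP, had 386 and 238 in Zmpste24-/- and WT cultures 1, against 980 and 1173 in Zmpste24-/- and 1129 and 1097 in WT cultures 2 and 3. This was the widest gap of the set, 3.47-fold (log2 differences -1.74, SE 0.19, and -1.85; limma adjusted p 0.000227 and 0.000188). Rangap1, which triggers GTP hydrolysis by Ran, had 933 and 1084 in Zmpste24-/- and WT cultures 1, against 1489 and 1260 in Zmpste24-/- and 1508 and 1483 in WT cultures 2 and 3, at -0.57 and -0.44 (limma adjusted p 0.00297 and 0.0111). The second lost its call without WT culture 3 or Zmpste24-/- culture 1 (adjusted p 0.118 and 0.0635). Ran itself was at -0.50 and -0.44 and Ranbp1, which assists Rangap1, at -0.82 and -0.75, and both passed.

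**Figure D3:**
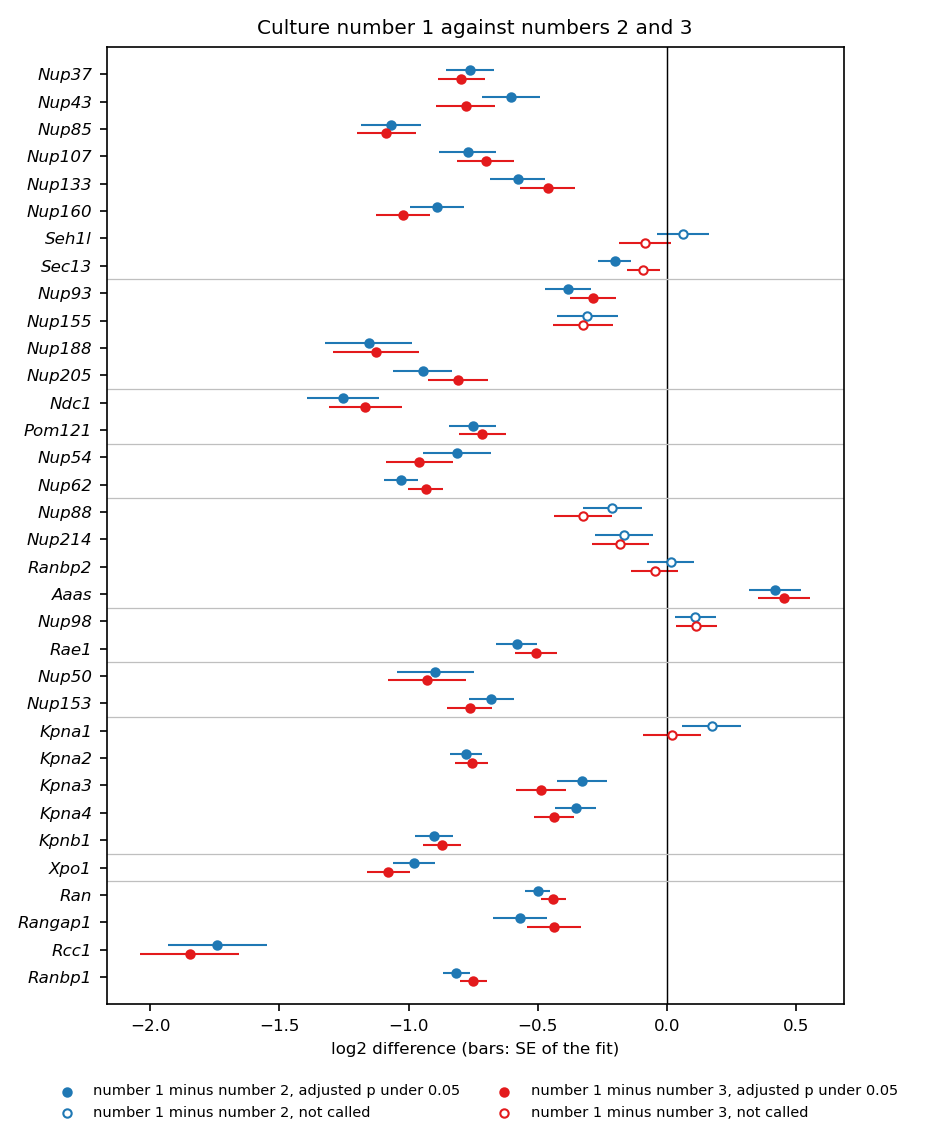
Log2 difference of cultures numbered 1 from number 2 (blue) and from number 3 (red) for 34 genes, with the SE of the fit as bars and filled circles for an adjusted p under 0.05. Rcc1 lies farthest left, at -1.74 and -1.85, and Aaas alone is filled on the right, at 0.42 and 0.45.

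Start-site sequences of members that moved with number 1 were read from RefSeq (GRCm38.p6), as windows of 250 bases before to 50 after the start. Of the members, 30 genes had 33 windows, among 32851 in all. Shown are Rcc1 (chr4:132345701-132346000, minus strand), Ndc1 (chr4:107367797-107368096, plus strand) and Nup188 (chr2:30286166-30286465, plus strand). Among members with a window they had the largest ratios of the other cultures to number 1. Aaas (chr15:102350710-102351009, minus strand) is shown as the member that was higher. Each reads in the direction of its gene, and capitals mark the motif matches described after them.
Rcc1: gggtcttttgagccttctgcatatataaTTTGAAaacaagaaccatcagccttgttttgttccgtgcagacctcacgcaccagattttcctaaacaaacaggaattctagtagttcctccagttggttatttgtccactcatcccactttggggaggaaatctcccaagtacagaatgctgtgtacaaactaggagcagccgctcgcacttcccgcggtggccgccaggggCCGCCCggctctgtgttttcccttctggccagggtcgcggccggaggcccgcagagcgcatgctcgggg
Ndc1: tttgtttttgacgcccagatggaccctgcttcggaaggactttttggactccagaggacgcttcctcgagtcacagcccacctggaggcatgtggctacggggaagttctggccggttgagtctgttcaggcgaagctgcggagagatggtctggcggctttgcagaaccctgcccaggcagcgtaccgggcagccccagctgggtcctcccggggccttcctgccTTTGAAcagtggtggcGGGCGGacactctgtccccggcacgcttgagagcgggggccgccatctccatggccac
Nup188: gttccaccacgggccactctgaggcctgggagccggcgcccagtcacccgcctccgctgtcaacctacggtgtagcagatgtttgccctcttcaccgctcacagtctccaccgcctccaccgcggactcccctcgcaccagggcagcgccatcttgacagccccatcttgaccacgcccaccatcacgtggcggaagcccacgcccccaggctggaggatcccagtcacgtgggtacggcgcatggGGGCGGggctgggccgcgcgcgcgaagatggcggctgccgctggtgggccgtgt
Aaas: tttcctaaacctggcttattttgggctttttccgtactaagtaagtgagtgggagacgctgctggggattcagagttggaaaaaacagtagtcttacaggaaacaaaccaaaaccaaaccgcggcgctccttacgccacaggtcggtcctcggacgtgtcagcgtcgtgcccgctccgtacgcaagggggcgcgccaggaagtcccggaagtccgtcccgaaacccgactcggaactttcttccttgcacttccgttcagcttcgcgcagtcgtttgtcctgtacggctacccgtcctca

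Motifs were searched on both strands, and no spelling contains another. The CHR element, TTTGAA, known from promoters of cell cycle genes, lay 222 bases before the start in Rcc1 and 24 bases before it in Ndc1. It was in 30.3% of member windows and 17.9% of all windows. The GC box, GGGCGG, lay 19, 8 and 4 bases before the start in Rcc1, Ndc1 and Nup188, and was in 72.7% of member windows and 35.7% of all. CCAAT was in 45.5% of member windows and 37.4% of all. An E2F site, searched as TTTCCCGC, TTTGGCGC, TTTCGCGC or TTTGCCGC, was in 6.06% of member windows, those of Nup210 and Ranbp1, and 2.26% of all. The window of Aaas held none of these letters. The shares of all windows also cover genes that did not pass the signal filter, whereas 29 of the 30 members with a window passed it. Shares among tested genes alone were not counted. Among the 24 windows of members called lower in number 1 than in both other numbers, the shares were 33.3% for CHR, 75% for the GC box, 45.8% for CCAAT and 4.17% for E2F. In the other 9 member windows they were 22.2% for CHR, 66.7% for the GC box, 44.4% for CCAAT and 11.1% for E2F. These 9 are not all of members without lower signal in number 1. They include Nup210, which was not tested and gave the E2F match there. They also include Nup155, Nup88, Nup214 and Sec13, for which both number 1 arrays lay below all other arrays.

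Several members have more than 1 tested probe set, and these did not always agree. Of 48 further probe sets in 23 members, 8 had the opposite sign to the brightest for number 1 against the rest, and 23 had the opposite sign for the genotype. In Seh1l, probe sets 1424202_at and 1424201_a_at were at -1.23 and -1.20 in number 1 against the rest, whereas its brightest, 1424200_s_at, was at -0.01 and the other 3 were between -0.22 and -0.03. For 1424202_at the signal was 331 and 360 in Zmpste24-/- and WT cultures 1, against 767 and 879 in Zmpste24-/- and 867 and 827 in WT cultures 2 and 3. Nup50 split the other way, with -0.91 for its brightest and -0.03 and -0.17 for the rest. In Nup133 the dim probe set 1441235_at was at 1.12, against -0.52 for the brightest. All 4 other tested probe sets of Kpna1 had the opposite sign to its brightest, which was at 0.097, with the lowest at -0.19. In Rae1 the 1 other was at 0.08, against -0.54 for the brightest. Nup62 and Nup98 had 1 of opposite sign each. The 2 tested probe sets of Xpo1 were at -1.03 and -0.55 for number 1, and at 0.17 and 0.20 for the genotype.

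**Figure D4:**
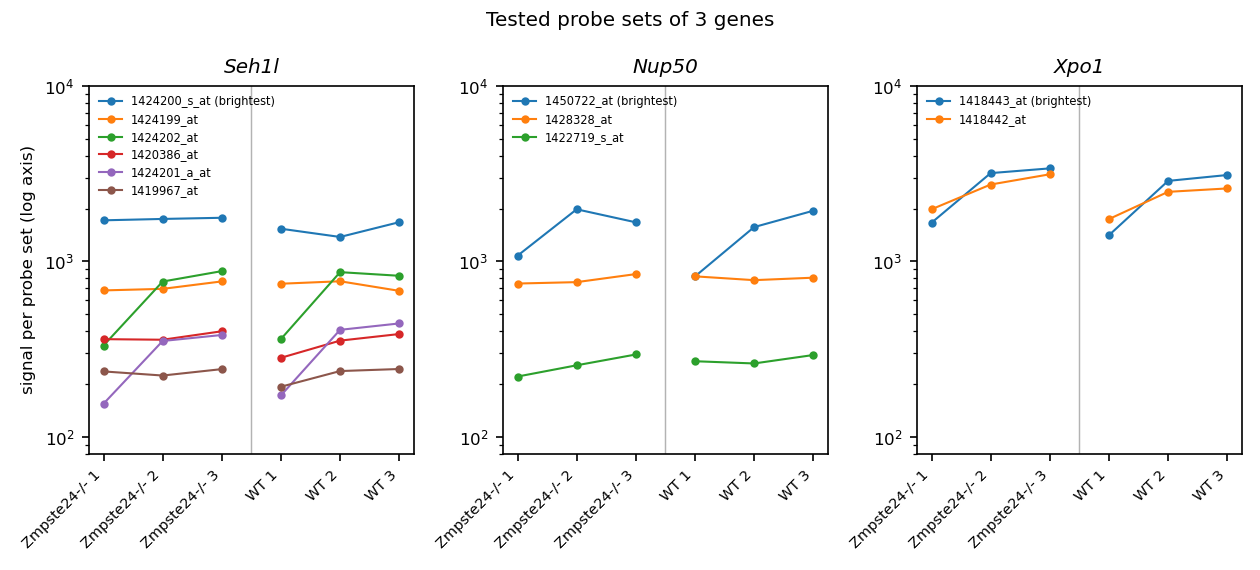
Signal (log axis) of each tested probe set of Seh1l, Nup50 and Xpo1 in the 6 arrays, Zmpste24-/- left of WT. In Seh1l 2 of 6 probe sets drop in the cultures numbered 1, in Nup50 1 of 3, and in Xpo1 both.

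Other genes of nuclear transport were listed apart from the set. Of 51 listed, 47 had a probe set and 45 were tested, and 19 of 45 were lower in number 1 than in both other numbers, beside 19.5% of all genes. These were 3 of 10 pore or pore-associated proteins, 4 of 13 importins, 4 of 7 exportins, and 8 of 15 Ran regulators and mRNA export genes. Rcc2, a relative of Rcc1, had 504 and 518 in Zmpste24-/- and WT cultures 1, against 1724 and 1333 in Zmpste24-/- and 1431 and 1402 in WT cultures 2 and 3. Ipo5, an importin for ribosomal proteins and histones, was at -1.38 and -1.39, Alyref, an mRNA export adaptor, at -1.50 and -1.37, and Rangrf, a Ran-binding factor, at -1.29 and -1.10. Xpo4 and the dim Ranbp17 were also lower, at ratios of 2.14 and 1.98. Against number 2, 2 of 45 were called higher in number 1, Nxt2 and Thoc2, beside 26.7% of all genes. Against number 3 it was 4 of 45, the same genes with Tnpo2 and Snupn, beside 25.4%. These 4 names were chosen after their values were seen.

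By genotype, 0 of 45 of these other genes passed an adjusted p of 0.05 in limma without the block, beside 0% of all genes. With the block it was also 0 of 45, beside 0.0230%. Rangrf had the smallest p with the replicate block, 0.0209 (limma adjusted p 0.498), with 719, 1814 and 1495 in Zmpste24-/- cultures 1, 2 and 3, against 832, 2033 and 1874 in WT cultures 1, 2 and 3. Xpo6 was at -0.19, Thoc5 at -0.21, Thoc1 at 0.19, Ipo7 at 0.10 and Mcm3ap at 0.17, and none passed. Gle1, an mRNA export factor named here after its values were seen, was the 1 gene of 45 whose Zmpste24-/- arrays all lay below WT, beside 2.65% of all genes, with 678, 590 and 615 in Zmpste24-/- cultures and 740, 679.7 and 679.6 in WT cultures.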

How the data were processed

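RNA of 6 cultures, 3 Zmpste24-/- and 3 WT, was measured on Affymetrix Mouse Genome 430 2.0 arrays. The table deposited by the authors holds intensity on a linear scale, computed in GCOS per the submitters' processing notes, with no version or settings named there. Without the top and bottom 2% of its values each array averages 500, so a change in total RNA per cell cannot be seen. The number of arrays limits the precision.

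Of 45101 probe sets, 64 controls were left out. Symbols came from the platform annotation: 34945 probe sets had 1 symbol, 932 several and 9160 none. Values were taken as log2(value + 16), on which folds of dim genes come out too small. The lowest 40% by mean over all arrays (signal under 39.4) were left out, and 27022 were tested in R 4.3.3 by limma 3.58.1, using its intensity trend and Benjamini-Hochberg adjustment over all of them. The genotype fit had no block; the fit of number contrasts had genotype and culture number, with 2 residual degrees of freedom. Percentages of all genes use each gene's brightest probe set. The scripts were tested on simulated data.

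After subtraction of group means, cultures 1, 2 and 3 of the genotypes correlated with their namesakes at 0.829, 0.588 and 0.574. All exceed 0.1, so numbers were taken as pairs; the labels speak of pairs without tying a number to one. Culture 2 of one genotype also correlated with culture 3 of the other (0.487 and 0.551). These also exceed 0.1, so the limit cannot tell the pairing of numbers 2 and 3 from the crossed one.

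Members, lists and tests were chosen with earlier results of these data known. All members are named; per-array values are given for the member of each role group with the smallest genotype p with the block and the one with the largest range of number means. Of other transport genes, the 6 with the smallest such p and the 6 with the largest number 1 difference are named. Alternatives were other pseudocounts, filters, normalizations and thresholds, no trend, other probe set choices, each array left out, and numbers 2 and 3 alone. Promoter windows came from RefSeq GRCm38.p6; no proteins or genome were used here. Figures were drawn with matplotlib 3.10.9 in Python 3.11.15.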

Additional observations from a re-analysis of the deposited data

How the results depend on the processing

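No member was called for the genotype under any alternative run, the replicate block and numbers 2 and 3 alone included. Over all probe sets the genotype calls numbered 0, but 5 with the replicate block and 20 in numbers 2 and 3 alone (chosen after seeing the data). With an array left out they numbered 0 to 4, the 4 being without WT culture 1. In numbers 2 and 3 alone, and without WT culture 1, the genotypes also differ in the sex markers throughout. The calls of those runs cannot be told apart from sex differences. The block changed no call of a member. The genotype median of members, 0.03, ran from a low of -0.18 (without WT culture 1) to a high of 0.26 (without Zmpste24-/- culture 1) with an array left out. Leaving out an array leaves the numbers unbalanced between genotypes. Uncalled genotype differences of single members changed sign in this way, with lowest and highest values of -0.29 and 0.0027 for Aaas, -0.32 and 0.27 for Kpnb1, -0.14 and 0.66 for Ndc1, -0.24 and 0.52 for Nup188, -0.19 and 0.42 for Nup50, -0.33 and 0.32 for Nup62, -0.42 and 0.30 for Nup85, -0.20 and 0.022 for Nup93, -0.23 and 0.13 for Rae1, -0.31 and 0.027 for Rangap1, -0.53 and 0.66 for Rcc1, and -0.19 and 0.49 for Xpo1. In numbers 2 and 3 alone Nup62 was at 0.0085 and Rcc1 at -0.053. Called members numbered 22 to 28 for number 1 minus 2 and 22 to 28 for number 1 minus 3 over the alternatives. Median centring moved the median of all probe sets by -0.157 in number 1 minus 2, and there put Ranbp2 at -0.14 and Seh1l at -0.093. With an array left out, Ranbp2 ranged over -0.089 to 0.12 and Seh1l over -0.045 to 0.17 for number 1 minus 2, and Ranbp2 over -0.15 to 0.058 for number 1 minus 3. Of 884 number 1 differences of the 34 members under alternatives of scale, filter, trend or arrays (added after seeing the data), 37 lost the call, in 7 members: Aaas, Kpna3, Kpna4, Nup133, Nup93, Rangap1 and Sec13. Another 12 gained it, in Nup155 and Nup88. Without the intensity trend 5 calls were lost for number 1 minus 2 and 3 for number 1 minus 3. Nup93 lost its call against number 3 without any of Zmpste24-/- cultures 1 or 3 or WT cultures 1 or 3 (adjusted p 0.0998 to 0.227). The cause of these changes was not tested. Dim probe sets such as those of Nup210 lay under the filter, so no difference could be tested there.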
